A study of Mus musculus with 6 samples.

Results

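The TGF-beta, BMP and activin signalling genes described here are 50 genes: ligands, receptors and co-receptors, secreted antagonists, latent TGF-beta binding proteins, and SMADs with a few of their target genes. They were taken from a list of gene symbols, and each was found on the array through the RefSeq accession of its probes. The list holds 50 of the 37074 genes and unnamed transcripts that had a probe. RNA came from mesenteric fat, from its stromal vascular fraction, which is the cells that collagenase frees from the tissue once adipocytes and debris are removed and red cells are lysed. All mice were male and of the strain C57BL/6JHamSlc-ob/ob, in which leptin is missing and obesity follows, so that the controls carried the ob/ob genotype too. The propolis group had been injected intraperitoneally with an ethanol extract of Brazilian propolis, a resin collected by bees, at 100 mg/kg, with 2 injections each week over 12 weeks. The vehicle group had received the carrier, which held a little DMSO and ethanol, for as long. Each group held 3 samples, each hybridised in Cy3 to its own 1-colour Agilent array, and the labels call them biological replicates. The age of the mice and the number of mice behind a sample are not given in the sources used here, so the tests measure the spread between these samples.

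Ligands of the TGF-beta superfamily are secreted dimers that bind pairs of type I and type II serine/threonine kinase receptors. TGF-beta and activin receptors then phosphorylate one branch of the SMAD transcription factors and BMP receptors another, and the Id genes are classical targets of the BMP branch. TGF-beta itself is stored in the matrix in a latent form, and soluble antagonists such as noggin, gremlin and follistatin keep BMPs or activins from their receptors. In fat tissue the family is known for its effects on adipocyte precursors and on fibrosis.

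All levels below are log2 intensities relative to the 75th percentile of the same array, and every ± is an SD with n = 3. A difference is the mean log2 level in propolis minus that in vehicle, with its 95% confidence interval from limma. A gene passed the test when its limma p, adjusted by Benjamini-Hochberg over the 25777 genes and transcripts tested, was below 0.05. Per array the 75th percentile of intensity was 525.8 to 858.9, and of the 59305 spots 61.1% to 66.7% were well above background. Slide 1, read in scan 1, carried replicates 1 and 2 of both groups, and slide 2, read in scan 2, carried vehicle 3 and propolis 3. All 10 genes of the fibroblast and progenitor list (Pdgfra, Dcn and others), the 10 measured macrophage genes and the 10 endothelial genes stood well above background on all 6 arrays, and so did the 8 adipocyte genes. Single arrays also held transcripts of organs near the mesentery: 6 pancreatic acinar genes averaged 4.64 in vehicle 2, and -3.32 to -2.47 elsewhere, and 11 intestinal epithelial genes averaged 4.24 in vehicle 3, and -4.21 to -1.12 elsewhere.

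Among the 46 signalling genes that could be tested, 5 rose after propolis and none fell. The risers were the ligand genes Gdf6, Tgfb3 and Inhba, the antagonist gene Wfikkn2 and the latent TGF-beta binding protein gene Ltbp2, with fold changes from 2.63 to 8.07. Of all genes tested, 0.834% passed, 0.722% by rising and 0.113% by falling. Array weights gave another balance, with 1674 genes higher and 1557 lower past the threshold, and among the members 15 higher and 2 lower, Bmp6 and Id1. At an unadjusted limma p below 0.05 stood 15 of the 46 (32.6%), 13 higher and 2 lower in propolis, beside 11.7% of all genes tested, 7.24% higher and 4.48% lower. The propolis and vehicle arrays did not overlap for 17 members, 15 of them higher in propolis and 2 lower, beside 17.4% of all genes, 10.8% higher and 6.62% lower. Over the whole list 25 means were higher and 21 lower, and the median difference was 0.08, beside 49.6% of means higher and a median of -0.0041 over all genes. Other scalings of the arrays gave 23 to 29 higher means. Since RNA was taken from a mixture of cells, a change in the number of cells of a type and a change in RNA per cell cannot be told apart for any of these genes. An exact permutation test of 3 arrays against 3 cannot give a p below 0.1, so no such test is given.

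**Figure D1:**
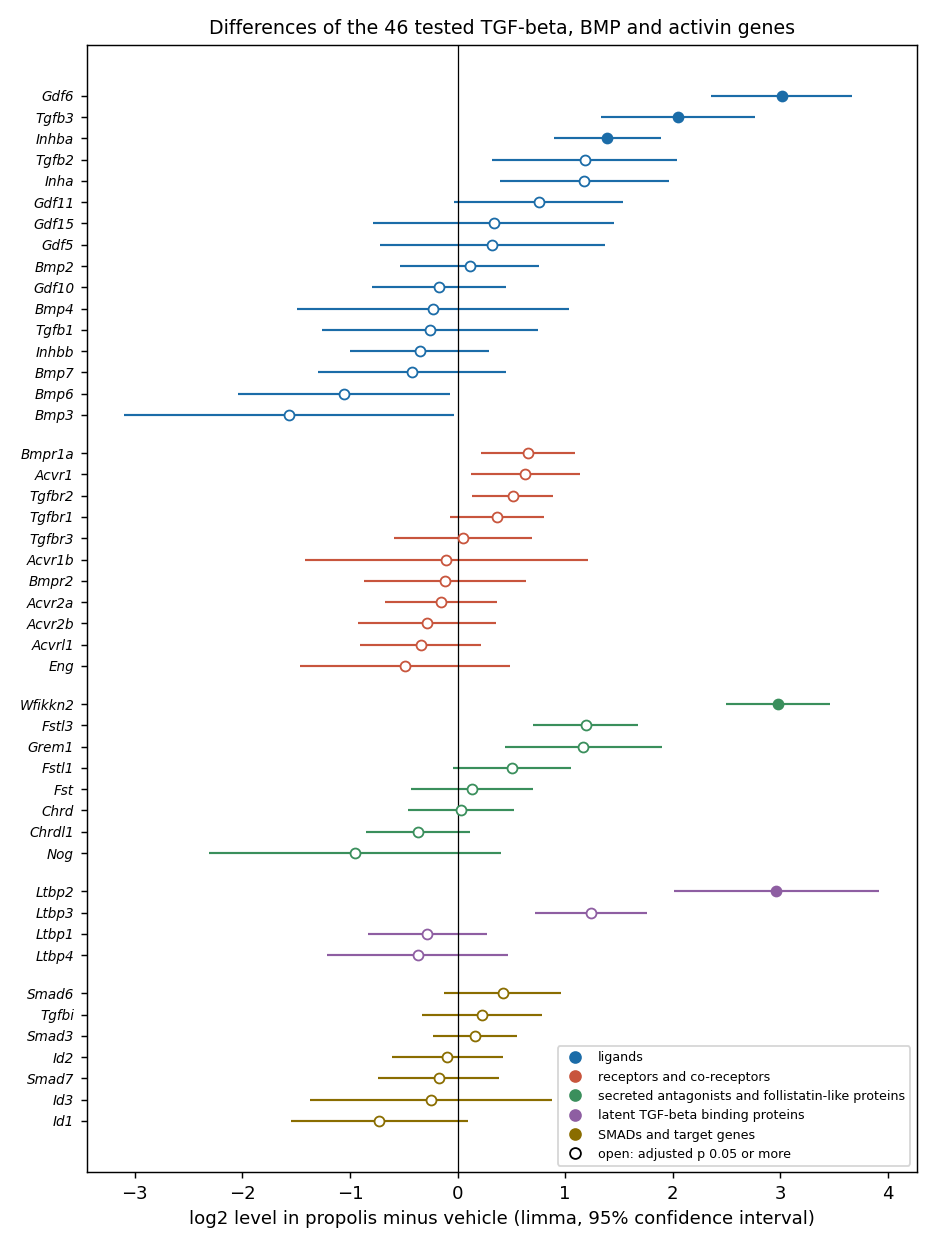
Difference in log2 level between propolis and vehicle for the 46 tested genes, in 5 blocks by role, with 95% confidence intervals from limma; filled points passed the adjusted threshold. The 5 filled points lie between 1.39 and 3.01, in the blocks of ligands, antagonists and latent TGF-beta binding proteins, while no receptor, SMAD or target gene is filled.

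Of the 18 ligand genes, 16 were tested. Gdf6, which encodes a BMP-type growth factor known from joint and skeletal patterning, stood at -1.13, -1.32 and -1.54 in vehicle 1 to 3 and at 1.77, 2.09 and 1.19 in propolis 1 to 3. All propolis arrays lay well above all vehicle arrays. The mean went from -1.33 ± 0.21 to 1.69 ± 0.45, a difference of 3.01 (2.36 to 3.67) or 8.07-fold (5.12 to 12.7), with a limma adjusted p of 0.0153. On slide 1 alone the difference was 3.15, and between the single arrays of slide 2 it was 2.73. Gdf6 ranked 35 of the 25777 by p. Leaving out propolis 3 gave an adjusted p of 0.0265, but the call was lost without vehicle 1 (0.0526), vehicle 2 (0.0846), vehicle 3 (0.0554), propolis 1 (0.0593) or propolis 2 (0.0660).

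Tgfb3, an isoform of TGF-beta, was at 3.06, 3.51 and 3.53 in the vehicle arrays and at 4.85, 5.70 and 5.70 in the propolis arrays. The lowest propolis array, propolis 1, was still higher than every vehicle array. The difference was 2.05 (1.33 to 2.76), from 3.37 ± 0.27 to 5.41 ± 0.49, which is 4.14-fold with an adjusted p of 0.0463, and it was 1.99 on slide 1 and 2.17 on slide 2. Without propolis 1 the adjusted p was 0.0429, and the call was lost without vehicle 1 (0.172), vehicle 2 (0.174), vehicle 3 (0.0927), propolis 2 (0.153) or propolis 3 (0.0890). It was also lost with quantile normalization (0.0650), with the percentile taken over probes well above background on all 6 arrays (0.0688) and with no filter on dim probes (0.0792).

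Inhba encodes the beta A subunit, which pairs with itself to form activin A. It measured -1.02, -1.18 and -0.63 in vehicle and 0.46, 0.56 and 0.33 in propolis. The groups did not overlap, and the propolis arrays were closer together (SD 0.12) than the vehicle arrays (SD 0.29). The difference was 1.39 (0.90 to 1.89), 2.63-fold, with an adjusted p of 0.0476, and it was 1.61 on slide 1 and 0.95 on slide 2. The call did not survive the loss of any array, with adjusted p of 0.210, 0.196 and 0.0575 without vehicle 1, 2 and 3 and 0.134, 0.163 and 0.0797 without propolis 1, 2 and 3. The percentile over probes well above background on all 6 arrays (0.0575) and no filter on dim probes (0.0840) ended it too.

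Among the ligand genes that did not pass, 2 more were higher on every propolis array. Tgfb2, another TGF-beta isoform, read 0.91, 0.87 and 0.68 in vehicle and 1.24, 2.15 and 2.61 in propolis, a difference of 1.18 (0.32 to 2.04) with an adjusted p of 0.256. Its other probe gave 1.33 (adjusted p 0.158 over all probes). Inha encodes the alpha subunit that turns activin beta subunits into inhibins, which oppose activin. It read -3.31, -3.42 and -2.79 in vehicle and -2.36, -2.25 and -1.38 in propolis, a difference of 1.18 (0.39 to 1.96) with an adjusted p of 0.218. It passed in 2 of the 22 alternatives run, with slide as a block, at 0.0438, and with array weights, at 0.0147.

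Bmp6 and Bmp3 had lower means in propolis and did not pass. Bmp6, a BMP known for its control of hepcidin in the liver, read 0.52, 0.48 and 1.19 in vehicle and -0.68, -0.81 and 0.51 in propolis. Here propolis 3 reached the level of vehicle 1 and vehicle 2, so the groups overlapped, and the difference was -1.06 (-2.04 to -0.07) with an adjusted p of 0.390. Bmp3, an atypical BMP that opposes osteogenic BMPs, read -3.38, -3.44 and -1.84 in vehicle and -5.60, -3.99 and -3.76 in propolis. The probe was dim, well above background on 2 of the 3 propolis arrays, and vehicle 3 and propolis 1 made up the extremes. Its difference was -1.56 (-3.10 to -0.03) with an adjusted p of 0.417.

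The other 9 tested ligand genes (Tgfb1, Bmp2, Bmp4, Bmp7, Inhbb, Gdf5, Gdf10, Gdf11 and Gdf15) differed by -0.42 to 0.75 and none had an adjusted p below 0.446. Gdf11, a close relative of myostatin, had the highest of these differences but was well above background on only 2 of 3 vehicle arrays. For Gdf5, a joint-forming BMP, the main probe gave 0.32 and another probe -0.13. Tgfb1, the isoform most studied in fibrosis, differed by -0.25 (-1.26 to 0.75). Bmp5 and Mstn, which encodes myostatin, stood well above background on no array and were not tested.

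**Figure D2:**
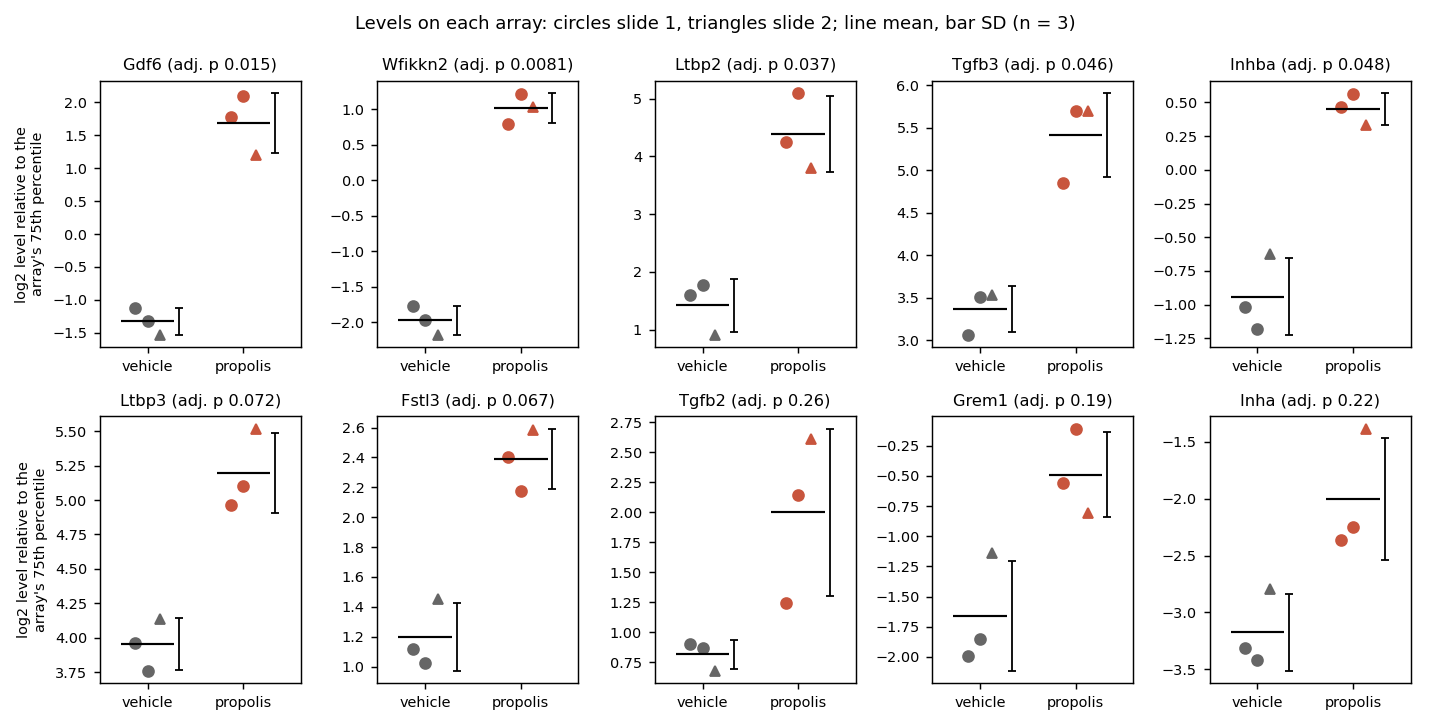
Log2 level relative to the array's 75th percentile on each of the 6 arrays for the 5 genes that passed the test (top) and 5 others that did not overlap between groups (bottom), each panel with its own axis; circles are slide 1, triangles slide 2, lines means and bars the SD of 3 arrays. In every panel all 3 propolis arrays lie above all 3 vehicle arrays, and for Grem1 the slide 2 arrays come closest, at -1.14 and -0.80.

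No receptor or co-receptor gene passed in limma, of 11 tested. An unadjusted p below 0.05 was found for 3, all with higher means in propolis, beside 11.7% of all genes tested. Of the 11 means, 5 were higher in propolis and 6 lower. Bmpr1a, a type I receptor for BMPs, read 1.63, 1.72 and 1.52 in vehicle and 2.51, 2.19 and 2.12 in propolis, a difference of 0.65 (0.22 to 1.09) with an adjusted p of 0.218. Acvr1, a type I receptor that also serves BMPs, read 2.73, 2.59 and 2.99 in vehicle and 3.12, 3.50 and 3.59 in propolis. That difference was 0.63 (0.13 to 1.13) with an adjusted p of 0.305, and 0.76 at its other probe. In both genes the groups did not overlap.

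Tgfbr2, the type II receptor that binds TGF-beta, read 5.70, 5.58 and 5.65 in vehicle and 6.19, 6.23 and 6.05 in propolis, a narrow spread within each group. Its difference of 0.51 (0.14 to 0.89) had an adjusted p of 0.262, and another probe gave 0.15. Tgfbr1, its type I partner, read 2.33, 2.35 and 2.04 in vehicle and 2.54, 2.79 and 2.50 in propolis, a difference of 0.37 (-0.07 to 0.81), while another probe gave -0.21. So the Tgfbr1 direction depended on the probe.

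The other 7 receptor genes (Tgfbr3, Bmpr2, Acvr1b, Acvr2a, Acvr2b, Acvrl1 and Eng) differed by -0.49 to 0.05, with adjusted p of 0.667 or more. Eng, the endothelial co-receptor endoglin, had the lowest difference, -0.49 (-1.47 to 0.49), and Acvrl1, the type I receptor of endothelial cells that works with it, had -0.34 (-0.91 to 0.22). Beside them, all 10 blood endothelial marker genes had lower means in propolis, with a median difference of -0.80, none of them past the test and 2 at an unadjusted p below 0.05. Their mean log2 level was 2.55 to 3.17 in vehicle and 1.60 to 2.73 in propolis, and their summed level on the linear scale 118.4 to 172.7 and 67.8 to 121.7. Their part in the receptor values was not tested. The median of the 11 receptor differences was -0.10, but 0.05 with median scaling, which moved the median of all genes to 0.15. Bmpr1b, another BMP type I receptor, was well above background on propolis 1 alone at both of its probes, Bambi, a decoy receptor, on no array, and neither was tested.

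All 8 secreted antagonist and follistatin-like genes were tested, and Wfikkn2 rose. Wfikkn2 encodes a secreted protein of protease inhibitor-like domains that binds myostatin and its relative growth differentiation factor 11. It read -1.77, -1.96 and -2.18 in vehicle and 0.80, 1.22 and 1.03 in propolis. The arrays within a group lay within a narrow range, and the gap between groups was far wider. The difference was 2.98 (2.50 to 3.47), from -1.97 ± 0.21 to 1.01 ± 0.21, which is 7.91-fold (5.66 to 11.1) with an adjusted p of 0.0081, and it was 2.87 on slide 1 and 3.21 on slide 2. Wfikkn2 ranked 10 of all genes by p. A second probe read -4.60, -4.62 and -3.85 in vehicle and -1.76, -1.67 and -0.77 in propolis, a difference of 2.96 with an adjusted p of 0.0275 over all probes. The probe that completes the set of 3 was above background on 2 propolis arrays only and did not enter. Without vehicle 1, vehicle 3, propolis 1 or propolis 3 the adjusted p was 0.0303, 0.0363, 0.0403 and 0.0277, and the call was lost without vehicle 2 (0.0602) or propolis 2 (0.0585).

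Fstl3, a follistatin-like protein that binds activins and myostatin, read 1.12, 1.02 and 1.45 in vehicle and 2.40, 2.18 and 2.59 in propolis. The groups were clear of each other, and the difference was 1.19 (0.70 to 1.68), with an adjusted p of 0.0666. Of the 22 alternatives run, it passed in 6. Among these were slide as a block (0.0395), median scaling (0.0444) and normexp background correction (0.0327). The others were genes with a symbol only (0.0461), a trended robust prior (0.0419) and array weights (0.0058). With 1 array left out it never passed (adjusted p 0.0915 to 0.274). Grem1, the BMP antagonist gremlin, read -1.99, -1.85 and -1.14 in vehicle and -0.56, -0.11 and -0.80 in propolis. Its difference of 1.17 (0.44 to 1.90) had an adjusted p of 0.187 and was uneven between slides, 1.59 on slide 1 and 0.34 on slide 2.

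Fstl1, a secreted glycoprotein of mesenchymal cells, read 6.71, 6.87 and 6.38 in vehicle and 7.11, 7.46 and 6.91 in propolis, a difference of 0.51 (-0.04 to 1.06) with an adjusted p of 0.463. The antagonists Fst, Nog, Chrd and Chrdl1 differed by -0.95 to 0.13 and did not pass, with adjusted p of 0.570 or more. Nog, which encodes the BMP antagonist noggin, had the lowest of these differences. It read -2.33, -2.26 and -2.58 in vehicle and -4.67, -2.90 and -2.46 in propolis, with propolis 1 apart from the other arrays. The 3 probes of Chrdl1 gave -0.36, -0.53 and -0.44.

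Of the 4 latent TGF-beta binding protein genes, Ltbp2 rose. These genes encode matrix proteins of the microfibrils, and Ltbp2 differs from the others in that it does not bind latent TGF-beta. Ltbp2 read 1.59, 1.77 and 0.90 in vehicle and 4.25, 5.10 and 3.81 in propolis. Vehicle 3 and propolis 3, the slide 2 arrays, were the lowest of their groups, and the gap between the groups was 2.99 on slide 1 and 2.91 on slide 2. The difference was 2.96 (2.01 to 3.92), from 1.42 ± 0.46 to 4.38 ± 0.66, which is 7.80-fold (4.03 to 15.1) with an adjusted p of 0.0367. The call was lost whichever array was left out, with adjusted p of 0.134, 0.124 and 0.0858 without vehicle 1, 2 and 3 and 0.115, 0.0990 and 0.0583 without propolis 1, 2 and 3, and with no filter on dim probes (0.0667).

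Ltbp3, which carries latent TGF-beta in bone and other tissues, read 3.96, 3.76 and 4.14 in vehicle and 4.97, 5.10 and 5.52 in propolis. All propolis arrays were higher, and the difference was 1.24 (0.72 to 1.76), with an adjusted p of 0.0719. Its other probe gave 1.07 with an adjusted p of 0.280. Ltbp3 passed in 6 of the 22 alternatives. Among these were slide as a block (0.0394), median scaling (0.0315) and normexp (0.0251). The others were genes with a symbol only (0.0481), a trended robust prior (0.0405) and array weights (0.0057). With 1 array left out it never passed (adjusted p 0.0943 to 0.282).

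Ltbp1 and Ltbp4 carried the opposite sign and did not pass. Ltbp1, the classical carrier of latent TGF-beta, read 2.49, 2.67 and 2.38 in vehicle and 1.88, 2.60 and 2.22 in propolis, a difference of -0.28 (-0.84 to 0.28). Ltbp4, which is also needed for elastic fibres, read 6.18, 6.05 and 6.79 in vehicle and 5.74, 5.55 and 6.61 in propolis, a difference of -0.37 (-1.21 to 0.47), and -0.50 at its other probe. In both genes the groups overlapped.

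None of the 7 SMAD and target genes passed, and none reached an unadjusted p below 0.05. Id1, an inhibitor of helix-loop-helix factors and a BMP target, read 3.18, 2.77 and 3.43 in vehicle and 2.85, 1.74 and 2.61 in propolis, a difference of -0.73 (-1.55 to 0.09) with an adjusted p of 0.488. Smad6, which inhibits BMP signalling, read -0.58, -0.86 and -0.43 in vehicle and 0.13, -0.44 and -0.30 in propolis, a difference of 0.42 (-0.12 to 0.96). For Id1 and for Smad6 the arrays of the groups overlapped.

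Smad3, which TGF-beta and activin receptors activate, read 3.22, 3.05 and 3.10 in vehicle and 3.41, 3.24 and 3.22 in propolis, a difference of 0.16 (-0.22 to 0.55), while another probe gave -0.12. Tgfbi, a matrix protein gene named for its induction by TGF-beta, read 6.20, 5.79 and 6.05 in vehicle and 6.29, 6.55 and 5.89 in propolis, a difference of 0.23 (-0.33 to 0.79). Smad7, Id2 and Id3 differed by -0.25 to -0.10, with adjusted p of 0.834 or more. The median over the 7 was -0.10, but 0.06 with median scaling, so no direction is given for the group.

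**Figure D3:**
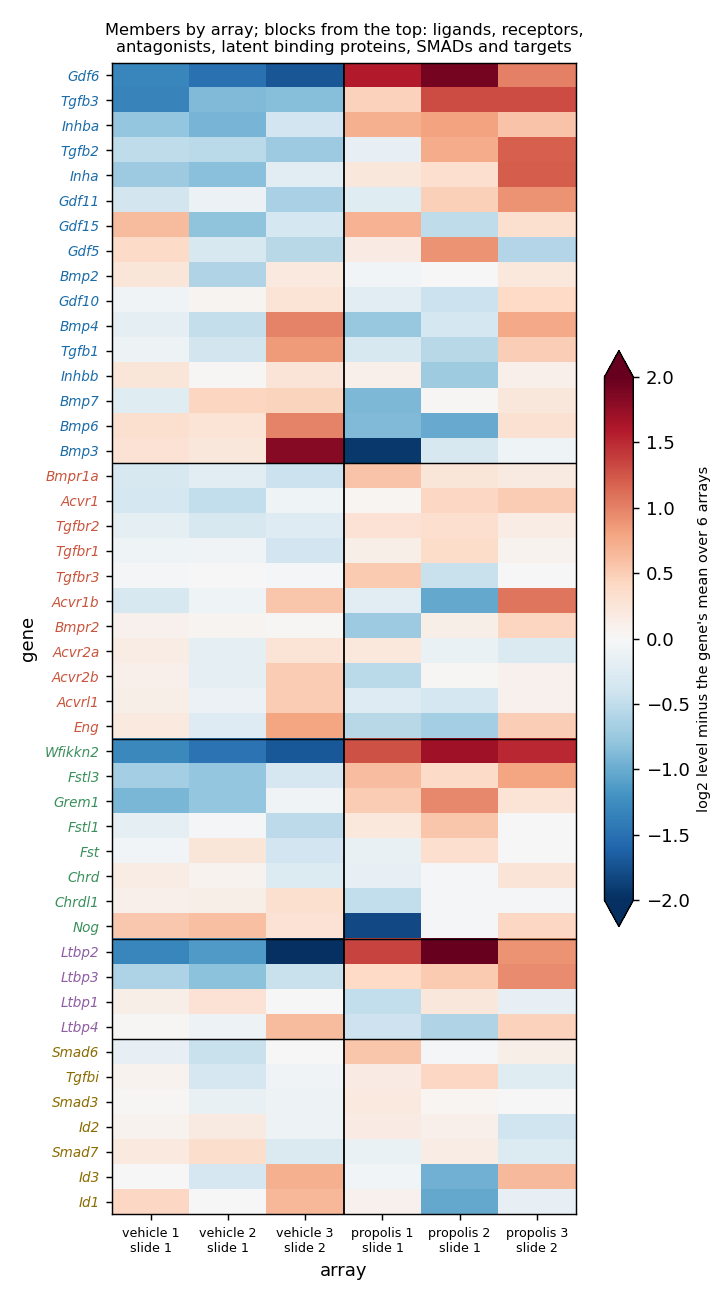
Log2 level of each tested gene on each array minus the gene's mean over the 6 arrays, in blocks by role from ligands at the top to SMADs and target genes at the bottom, with colours capped at 2 in either direction. The 5 genes that passed change colour at the line between vehicle and propolis, while Tgfb1, Bmp4, Eng and Id3 are highest on the 2 arrays of slide 2.

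For 10 of the 46 genes the arrays split by slide rather than by treatment: both slide 2 arrays lay above or below all 4 arrays of slide 1. This held for 34.0% of all genes tested. Tgfb1, Bmp4, Gdf10, Acvr1b, Eng, Ltbp4 and Id3 were higher on slide 2 and Gdf5, Smad7 and Id2 lower. Tgfb1 read 1.90 and 1.54 in vehicle 3 and propolis 3 and 0.94, 0.67, 0.72 and 0.50 on slide 1, a gap between slide means of 1.01. The gap was 1.31 for Bmp4 and 1.01 for Id3.

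RefSeq promoter entries (build GRCm38.p6) were found for 36 of the 50 genes, in 43 promoters. The 250 bases before the start are shown for those of the 5 risen genes that have one, because these genes passed the test. Capitals mark matches to CAGAC, the core that SMAD proteins bind, on either strand.
Ltbp2, chr12:84876492-84876741, minus strand: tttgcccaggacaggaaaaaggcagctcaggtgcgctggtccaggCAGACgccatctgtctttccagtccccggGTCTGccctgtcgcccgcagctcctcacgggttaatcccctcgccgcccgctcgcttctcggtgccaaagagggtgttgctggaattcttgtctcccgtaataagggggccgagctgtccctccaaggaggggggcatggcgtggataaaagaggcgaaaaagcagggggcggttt
Inhba, chr13:16011601-16011850, plus strand: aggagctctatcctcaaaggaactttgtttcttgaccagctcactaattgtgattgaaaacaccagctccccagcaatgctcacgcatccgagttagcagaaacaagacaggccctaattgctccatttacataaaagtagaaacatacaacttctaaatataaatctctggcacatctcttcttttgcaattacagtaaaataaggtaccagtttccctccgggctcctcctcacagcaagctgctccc
Wfikkn2, chr11:94242580-94242829, minus strand: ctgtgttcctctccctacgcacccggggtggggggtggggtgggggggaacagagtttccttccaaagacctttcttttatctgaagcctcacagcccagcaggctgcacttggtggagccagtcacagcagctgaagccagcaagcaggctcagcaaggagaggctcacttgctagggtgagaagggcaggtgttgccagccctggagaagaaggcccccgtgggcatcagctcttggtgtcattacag
Ltbp2 held 2 matches, 1 on each strand, and Inhba and Wfikkn2 held none. CAGAC was present in 23 of the 43 promoters of the signalling genes and in 42.2% of all 32851 promoters of this length. The GC-rich SMAD element GGCGCC was present in 9 of the 43 and in 9.59% of all, and the palindrome GTCTAGAC in 0 of the 43 and in 0.167% of all. Both strands were searched, and none of the 3 motifs lies within another. Overlapping promoters of Ltbp4 hold the same GGCGCC site, which was counted in each. A match is a run of letters and was not tested for binding.

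Markers of mesothelium, the cell layer that covers the mesentery, differed between the groups in the same direction as the 5 genes that rose. Of 12 genes in the list 11 were tested (Muc16 was not), and 10 had higher means in propolis, with a median difference of 1.59. The transcription factor genes Wt1 and Bnc1 rose, and 6 genes had an unadjusted p below 0.05. Wt1 read 3.51, 3.21 and 2.69 in vehicle and 4.97, 5.09 and 5.29 in propolis. The mean log2 level of the list was 1.06, -0.19 and 1.54 in vehicle and 2.12, 1.68 and 2.57 in propolis, so the groups did not overlap. Summed on the linear scale it was 19.6 to 99.4 in vehicle and 70.3 to 114.1 in propolis, and these ranges overlapped. The keratin genes Krt8, Krt18 and Krt19, which intestinal epithelium expresses too, were highest in vehicle 3, at 4.74, 4.06 and 5.24, the array that was also high in intestinal transcripts. The part of mesothelial cells in the rise of Gdf6, Tgfb3, Inhba, Wfikkn2 and Ltbp2 was not tested.

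The lists of the main stromal and macrophage types showed no common direction. The 10 fibroblast and progenitor genes averaged 5.49 to 5.62 in vehicle and 5.61 to 5.81 in propolis, with 4 means higher and 6 lower and none past the test. At an unadjusted limma p below 0.05 stood 3 of them, all higher in propolis: Lum by 0.81, Col1a1 by 0.62 and Pdgfrb by 0.47. Pericyte and smooth muscle genes averaged 1.02 to 2.55 on the vehicle arrays and 0.89 to 2.56 on the propolis arrays. The 10 macrophage genes averaged 4.04 to 4.46 and 4.25 to 4.39.

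Several other lists had lower means in propolis at every gene tested, and none of their genes passed. The 8 adipocyte genes had a median difference of -0.72, with 3 at an unadjusted p below 0.05, and averaged 1.35 to 2.38 in vehicle and 0.63 to 1.48 in propolis. The 8 T cell genes had a median difference of -0.62, with none at an unadjusted p below 0.05. The 8 B cell genes had a median difference of -2.11, with 3 at an unadjusted p below 0.05, and averaged -0.38, 1.50 and -2.14 in vehicle and -3.05, -2.64 and -1.77 in propolis, so that vehicle 3 lay among the propolis arrays. Median differences were -2.67 for the 6 acinar genes, whose level was high in vehicle 2 alone, and -1.83 for the 11 intestinal genes. The intestinal genes averaged 4.24 in vehicle 3 and, next highest, -1.12 in propolis 1, where Fabp2 read 3.21. The part of these cell types in the members' values was not tested.

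**Figure D4:**
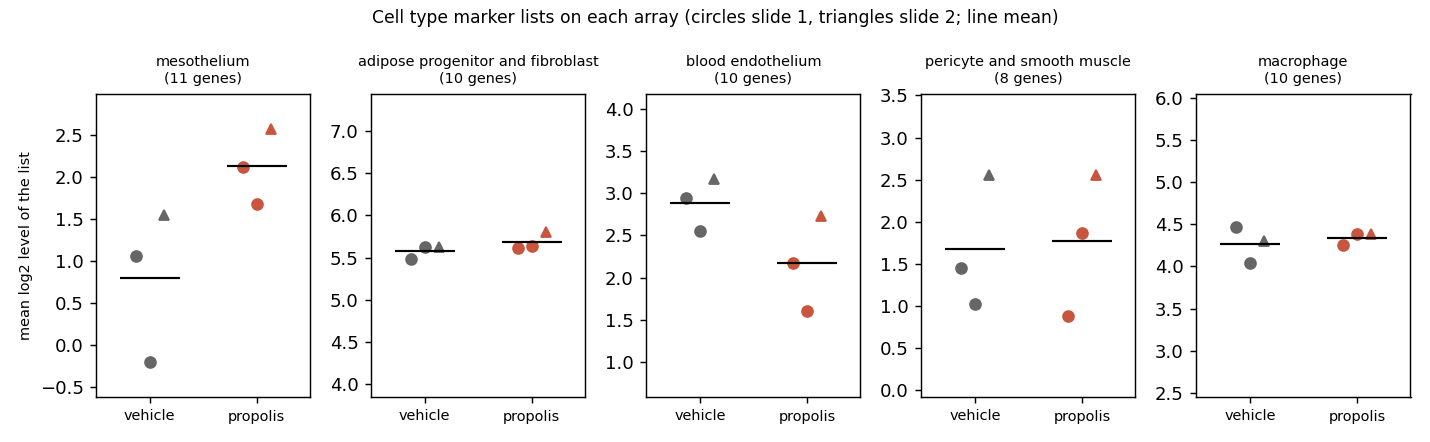
Mean log2 level of 5 cell type marker lists on each array, with circles for slide 1, triangles for slide 2 and a line at the group mean, on axes that span the same range of log2 units. Mesothelial genes lie between -0.19 and 1.54 in vehicle and between 1.68 and 2.57 in propolis, without overlap. The ranges of the fibroblast, endothelial, pericyte and macrophage lists overlap between the groups.

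A further 79 genes of the superfamily and its regulators were listed to set beside these members, and 68 could be tested. Of them 1 rose and none fell, a share of 1.47% beside 0.834% of all genes tested. Bmper, which encodes a secreted BMP-binding regulator of endothelial cells, read 2.84, 2.31 and 2.14 in vehicle and 6.08, 4.89 and 4.68 in propolis, so that every propolis array was higher. The difference was 2.78, 6.88-fold, with an adjusted p of 0.0488. Its call was lost whichever array was left out, with adjusted p of 0.132, 0.194 and 0.116 without vehicle 1, 2 and 3 and 0.0608, 0.138 and 0.0676 without propolis 1, 2 and 3, and it was lost with normexp (0.0557) and with no filter on dim probes (0.0835). At an unadjusted p below 0.05 stood 27 of the 68, 24 of them higher, beside 11.7% of all genes, and the median difference was 0.21. The 27 include Gdf2, which met the filter on dim probes through its propolis arrays alone. When probes had to be well above background on all 6 arrays, 24 pathway genes stood there, beside 2781 of the 23349 genes then tested.

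Several of these genes came close to the threshold without passing. Id4, the relative of Id1, read 0.42, 0.52 and 0.19 in vehicle and 2.27, 1.77 and 1.62 in propolis, a difference of 1.51 with an adjusted p of 0.0509. Amhr2, the receptor of anti-Müllerian hormone, differed by 2.98 (adjusted p 0.0604), Lefty1, which encodes an inhibitor of nodal, by 0.92 (0.0842), and Chrdl2, a chordin-like BMP antagonist, by 4.15 (0.0996). Gdf2, a BMP that signals through Acvrl1, was well above background on no vehicle array and on all 3 propolis arrays. It was at least 1.58-fold higher in propolis, with measured means of -7.09 and -4.70. Gdf2 met the filter on dim probes through its propolis arrays alone, so its limma adjusted p of 0.102 is no support for a difference.

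The genes that store or activate latent ligands had higher means in propolis at 12 of 13, with 9 at an unadjusted p below 0.05 and none past the test. Over all genes 49.6% of means were higher and 11.7% of genes had an unadjusted p below 0.05. Among them Emilin1, a matrix glycoprotein that limits the processing of TGF-beta, differed by 1.45 (adjusted p 0.0848). Itgb8, the beta subunit of an integrin that activates latent TGF-beta, differed by 2.46 (0.101) but was well above background on only 1 of 3 vehicle arrays. Of 14 other SMADs and regulators, 1 had an unadjusted p below 0.05, and of 13 other target genes 6 did, 5 of them higher in propolis.

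The 5 calls depended on the processing to different degrees. Of the 22 alternatives run, Wfikkn2 passed in 18, Gdf6 in 15, Ltbp2 in 13, and Tgfb3 and Inhba in 11 each. None of the 23 genes whose levels are given on every array under the rule for named genes changed sign in any of these 22 (21 for Bmp3), although further probes of Tgfbr1 and Smad3 gave the opposite sign. Where the groups of a gene did not overlap, leaving out arrays could not have changed its sign. With any array left out, the number of genes that passed among all tested fell from 215 to between 11 and 94, and among the members from 5 to between 0 and 2.

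**Figure D5:**
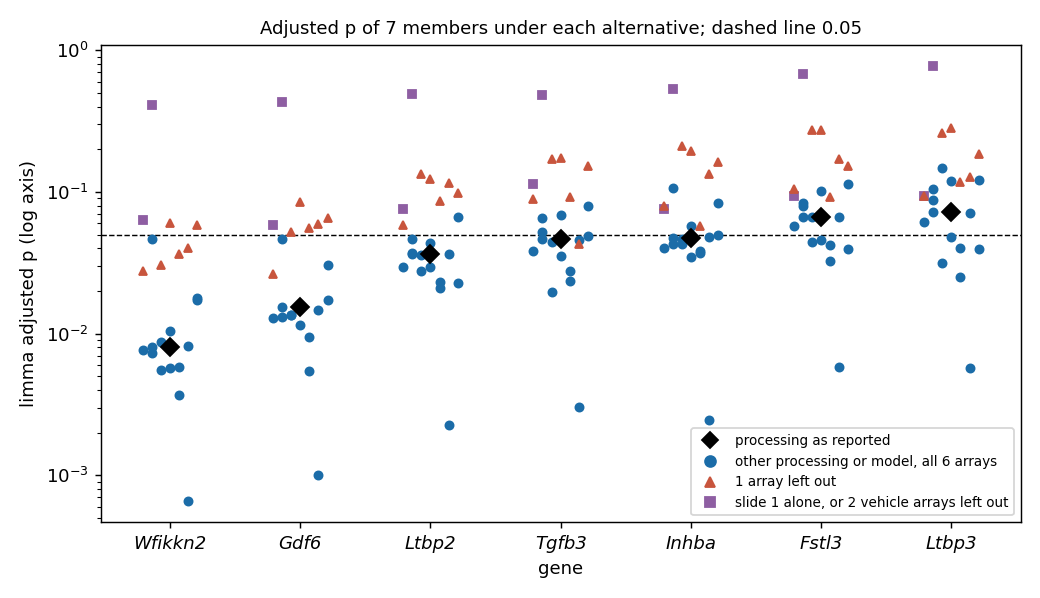
Limma adjusted p on a log axis for the 5 genes that passed and for Fstl3 and Ltbp3, under the processing as reported (diamonds), other processing or models on all 6 arrays (circles), 1 array left out (triangles), and slide 1 alone or 2 vehicle arrays left out (squares), with a dashed line at 0.05. Circles of Wfikkn2 and Gdf6 all lie below the line, while triangles lie on both sides for these genes and for Tgfb3 and above it for Ltbp2 and Inhba.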

How the data were processed

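Per the labels, 0.1 µg of TRIzol-extracted RNA was labelled with Cy3 for 1-colour arrays. Per the submitters' processing notes, Agilent Feature Extraction 10.7.3.1 read the arrays. The deposited scanner tables hold the processed signal, a background-corrected intensity, and the deposited series table holds log2 values near 0 at each array's 75th percentile, with medians of -3.95 to -3.61. The series table served as an alternative only.

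The intensity was turned to log2, non-uniform spots were left out, replicate spots averaged and each array's 75th percentile subtracted. A probe entered if well above background on at least 3 of 6 arrays (34786 of 55681, of which 4 lacked a value and were dropped), and the brightest stood for its gene. Levels of different probes are not comparable. Symbols came from RefSeq accessions of GRCm38.p6, for names only, since the array design is on mm9. Of the probes, 28446 had no symbol. The 50 members had 65 probes, and 11 members had several that entered.

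The comparison used limma 3.58.1 (R 4.3.3, lmFit, eBayes, no block, prior of 2.36 degrees of freedom). The fit was also run on simulated independent normal values. Those held no slide effect and no transcripts of neighbouring organs, so that run does not bear on the calls. Levels on every array are given for members with an unadjusted p below 0.05 and up to 4 per role by p. Of the further pathway genes, those past the threshold and up to 8 of lowest p are named. Members, lists, rule and alternatives were chosen with earlier results of these data known. Alternatives covered background correction (normexp on median signals, offset 50), scaling, filter, flags, probe rule, genes with symbols only, prior, array weights, series table, slide, replicate block, threshold and arrays left out. The alternative that tests each further probe by itself was chosen after seeing the data. Where no array of the dimmer group measured a gene, its fold is a bound against the lowest signal well above background. The number of arrays limits the precision.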

Additional observations from a re-analysis of the deposited data

How the results depend on the processing

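The limits are those of 3 arrays a group, with vehicle 2 and vehicle 3 carrying transcripts of neighbouring organs. Directions of the 5 genes that rose held in every alternative run, but the number of calls did not. The groups of these 5 genes did not overlap, so leaving out arrays could not have turned their sign. Against 215 genes that passed, 106 did with no filter on dim probes, 3231 with array weights (1674 higher, 1557 lower) and 526 at an adjusted p below 0.10. With slide as a block 313 genes passed, and 176 with the percentile over probes well above background on all 6 arrays. Leaving out 1 array each gave 11 to 94. Against 5 members, 3 passed with the percentile over probes well above background on all 6 arrays, 2 with no filter, 17 with array weights (15 higher, 2 lower) and 8 with slide as a block. Leaving out 1 array gave 0 to 2 members, 0 without vehicle 2 or propolis 2, with 11 to 17 at an unadjusted p below 0.05. In those fits 1974 to 4846 of all genes had an unadjusted p below 0.05. On slide 1 alone, limma passed 0 genes, members and pathway genes, with 5856, 14 and 27 at an unadjusted p below 0.05. Without vehicle 2 and vehicle 3 together it also passed 0 of each, with 1362, 9 and 12 at an unadjusted p below 0.05, and the lone vehicle array was assumed to vary like the propolis arrays. With array weights 24 members, not 15, had an unadjusted p below 0.05, and so did 8295 of all genes, not 3020. Against 1 pathway gene, 2 passed with quantile normalization, median scaling, normexp, the filter on all 6 arrays and slide as a block, 3 with the mean of probes, genes with symbols only or the trended robust prior, 20 with array weights, 6 at an adjusted p below 0.10 and 0 with no filter (24 at an unadjusted p below 0.05). Leaving out 1 array gave 0 to 1, with 16 to 27 at an unadjusted p below 0.05, the lowest without vehicle 2.

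Samples of the same replicate number deviated together with correlations of 0.036, 0.291 and 0.135, so the numbers were not taken to pair the samples. With the replicate block 73 genes, 3 members and 2 pathway genes passed, and the calls of Tgfb3 (adjusted p 0.0519) and Inhba (0.106) ended. Median scaling moved the median of all genes to 0.15. Further probes turned the sign of Tgfbr1 (-0.21, adjusted p 0.909) and Smad3 (-0.12, adjusted p 0.902), and neither gene passed at either probe.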
